A study of Mus musculus with 6 samples.

Results

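The genes described here are 3 FoxO transcription factors (Foxo1, Foxo3 and Foxo4), the transcription factor Klf15, and 5 ubiquitin ligase genes linked to muscle wasting (Fbxo32, Trim63, Fbxo30, Nedd4 and Traf6). They were chosen by gene symbol, and all 9 were found among the 47069 genes of the count table. Muscle stem cells were purified by the study from muscle of mdx mice, which lack dystrophin and model Duchenne muscular dystrophy, and were grown as myoblasts in Ham's F10 with 20% fetal bovine serum and FGF2. One group of 3 libraries received vehicle and the other group of 3 libraries received 10 µM PSB-KD107, a synthetic agonist of the lipid mediator receptor Gpr18. Both groups therefore carry the mdx mutation, and no group with dystrophin was sequenced. The sample records give a treatment of 2 days, whereas the study describes an overnight treatment. The treatment field of the treated samples reads PSB-KD-1 in place of the name in their protocol.

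FoxO factors are kept in the cytoplasm when Akt phosphorylates them, because 14-3-3 proteins then bind them, and they enter the nucleus when Akt signaling falls. In wasting muscle they switch on the so-called atrogenes. Among these, Fbxo32 encodes atrogin-1 and Fbxo30 encodes MUSA1, which are F-box proteins that pick the substrates of SCF (Skp1, Cul1 and F-box) ligases. Trim63 encodes MuRF1, a RING ligase of sarcomere proteins. Klf15 is a transcription factor induced by glucocorticoids. Nedd4 is a HECT ligase and Traf6 is a RING ligase that builds signaling ubiquitin chains with Ube2n. Since the study also examined Akt signaling after PSB-KD107, the comparison asks whether the transcripts of these factors and ligases differed between treated and vehicle cultures. RNA counts do not measure the phosphorylation or the location of a protein.

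The libraries held between 30917613 and 48756794 counts, so that 3 counts corresponded to between 0.0596 and 0.0962 CPM (counts scaled to the TMM-normalized library size). This floor covers counting error only. Libraries were numbered 1, 2 and 4 in each group by the table and 1, 2 and 3 by the sample records. The former numbers are used here. PSB-KD107 library 4 stood apart. It held the highest or the lowest of the 6 values in 51.8% of the 14165 genes tested, against at most 39.6% for any other library, so the results it moves most are also given without it. The cells were checked against marker genes. Myod1, a defining factor of myoblasts, was at 844 ± 289 CPM in vehicle (SD, n = 3) and 562 ± 186 CPM in PSB-KD107 libraries. Myog, which marks differentiating myoblasts, was at 2134 ± 82.8 and 1521 ± 301 CPM, and the 15 myotube markers summed to between 45560 and 59058 CPM in vehicle and between 37925 and 46190 CPM in PSB-KD107 libraries. The cultures therefore held transcripts of differentiating cells in both groups, beside the satellite cells named in the records. The summed markers of other cell types reached at most 9.90 CPM for fibroblasts (8 markers, with Lum and Tcf21 at 0), 7.31 CPM for immune cells (8 markers, with Adgre1 and Tyrobp at 0), 1.56 CPM for endothelial cells (6 markers, with Emcn at 0) and 0.199 CPM for adipocytes (6 markers, with Plin1 and Retn at 0). Defining markers were close to 0 too, with group means of 0.963 and 1.07 CPM for Pdgfra, 0.0085 and 0.0107 CPM for Ptprc, 0.179 and 0.183 CPM for Pecam1, and 0 and 0.00662 CPM for Adipoq.

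The upstream sequences of Trim63 and Traf6 are shown because both hold a known FoxO motif, and that of Trim63 also a glucocorticoid receptor half-site. Each is the run of 250 bases before the RefSeq start of the gene in GRCm38.p6, printed 5′ to 3′ on the strand of the gene, with the motif matches in capitals. The Trim63 run lies at chr4:134314870-134315119 on the plus strand and the Traf6 run at chr2:101678170-101678419 on the plus strand.
Trim63: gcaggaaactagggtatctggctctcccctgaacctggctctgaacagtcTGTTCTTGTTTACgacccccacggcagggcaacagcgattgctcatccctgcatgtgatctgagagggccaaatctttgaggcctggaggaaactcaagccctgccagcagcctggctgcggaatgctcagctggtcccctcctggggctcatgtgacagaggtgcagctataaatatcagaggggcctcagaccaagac
Traf6: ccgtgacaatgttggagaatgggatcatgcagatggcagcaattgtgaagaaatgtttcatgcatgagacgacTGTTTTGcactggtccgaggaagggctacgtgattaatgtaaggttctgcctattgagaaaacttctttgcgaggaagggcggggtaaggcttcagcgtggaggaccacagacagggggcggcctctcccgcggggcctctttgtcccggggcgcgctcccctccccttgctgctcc
In Trim63, the glucocorticoid half-site TGTTCT (bases -200 to -195 from the start) was directly followed by the FoxO core TGTTTAC (bases -194 to -188). In Traf6, the capitals are the reverse complement of the insulin response motif CAAAACA, with its match at bases -177 to -171. Searched on both strands over 32851 mouse promoters of the same length, TGTTTAC was present in 3.17%, CAAAACA in 5.56% and TGTTCT in 16.1%. Of the 8 windows available for 7 of the genes, TGTTTAC was found in 1 (Trim63), CAAAACA in 1 (Traf6) and TGTTCT in 2 (Trim63 and the second window of Nedd4). The windows of Foxo1, Foxo3, Fbxo30 and Klf15 and the first window of Nedd4 held none of the 3 motifs. Their GC content spanned 46.0% to 80.4% over the 8 windows, against a median of 52.4% over all promoters. Fbxo32 and Foxo4 had no window here. These matches describe letters in a short window and say nothing about binding in these cells.

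Levels were compared between genes as FPKM, in which the counts are scaled by exon length and library size. Nedd4 (chr9:72662346-72749852) had the highest level, with a mean of 155.9 FPKM over the 6 libraries, which placed it at the 97.9th percentile of the genes tested. Foxo4 (chrX:101254528-101260873) followed at 39.5 FPKM, Trim63 (chr4:134315120-134329629) at 25.8 FPKM and Foxo3 (chr10:42181841-42276755) at 18.5 FPKM. Next came Fbxo30 (chr10:11281330-11298052) at 12.4 FPKM, Fbxo32 (chr15:58175879-58214932) at 12.1 FPKM and Foxo1 (chr3:52268336-52353221) at 11.1 FPKM. Traf6 (chr2:101678429-101701669) was lower, at 4.02 FPKM, near the median of 4.72 FPKM of all genes tested. Klf15 (chr6:90462576-90475238) was the lowest at 0.0436 FPKM. The ranges over libraries were apart between Nedd4 and Foxo4, between Foxo1 and Traf6, and between Traf6 and Klf15. All other neighbours in this order overlapped. Foxo4 and Trim63, with lowest values of 25.6 and 21.2 FPKM, nonetheless lay above every library of Fbxo30, Fbxo32 and Foxo1, which reached at most 17.6 FPKM. The coordinates are those of whole genes in GENCODE M21 (GRCm38). Antisense genes overlap exons of Foxo1 (Gm20402, 32 counts over the 6 libraries) and Fbxo32 (Gm15943, 24 counts), and the strand setting of the counting is not given in the sources used here.

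**Figure D1:**
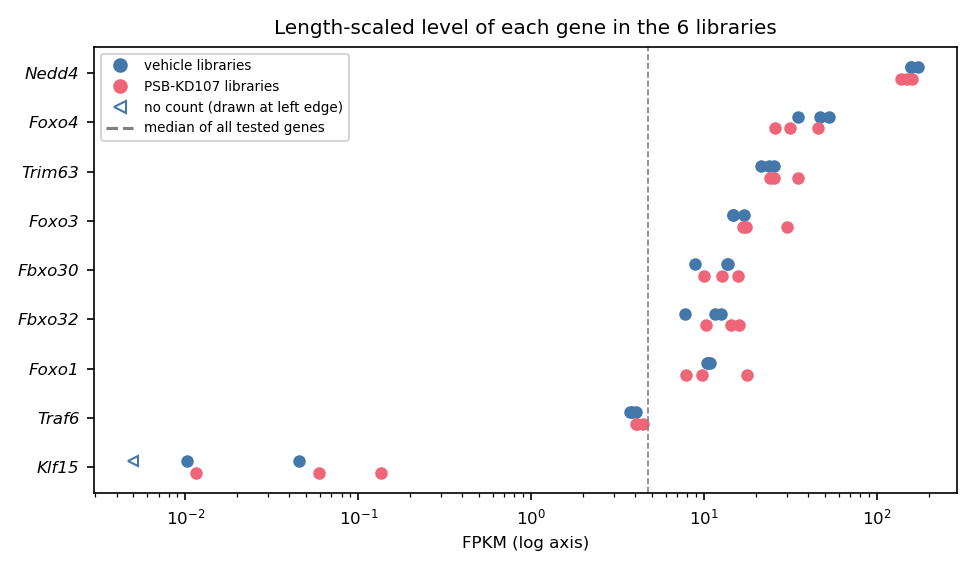
FPKM (log axis) of each of the 9 genes in the 3 vehicle (blue) and 3 PSB-KD107 libraries (red), ordered by mean level, with the median of all tested genes (4.72 FPKM) as a dashed line. Nedd4 lies above 138.1 FPKM in every library, Klf15 reaches at most 0.135 FPKM and has no count in vehicle library 4, and Foxo4 and Trim63 lie above Fbxo30, Fbxo32 and Foxo1 in every library.

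Across the 9 genes, the transcripts of the FoxO factors and of the atrophy ligases did not pass the test between PSB-KD107-treated and vehicle cultures. Of the 8 genes with enough counts to be tested, 6 had a higher and 2 (Foxo4 and Nedd4) a lower level in PSB-KD107 libraries, with a median log2 fold change of 0.13 against -0.00074 over all genes tested. By edgeR's quasi-likelihood test with Benjamini-Hochberg adjustment over all genes, 0 of the 8 were called, as in the whole table, where 0.0% were called. At an unadjusted p under 0.05, edgeR also gave 0 of 8, beside 9.4% of all genes tested. DESeq2 called 0 of 8 at an adjusted p under 0.05, beside 1.7% of all genes with a count, and gave adjusted p-values between 0.612 and 0.965. In 1 of the 8 genes, Traf6, the groups did not overlap, whereas 15.8% of all genes tested had groups that did not overlap. Without PSB-KD107 library 4, 4 genes were higher and 4 lower, and the median was -0.0037.

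**Figure D2:**
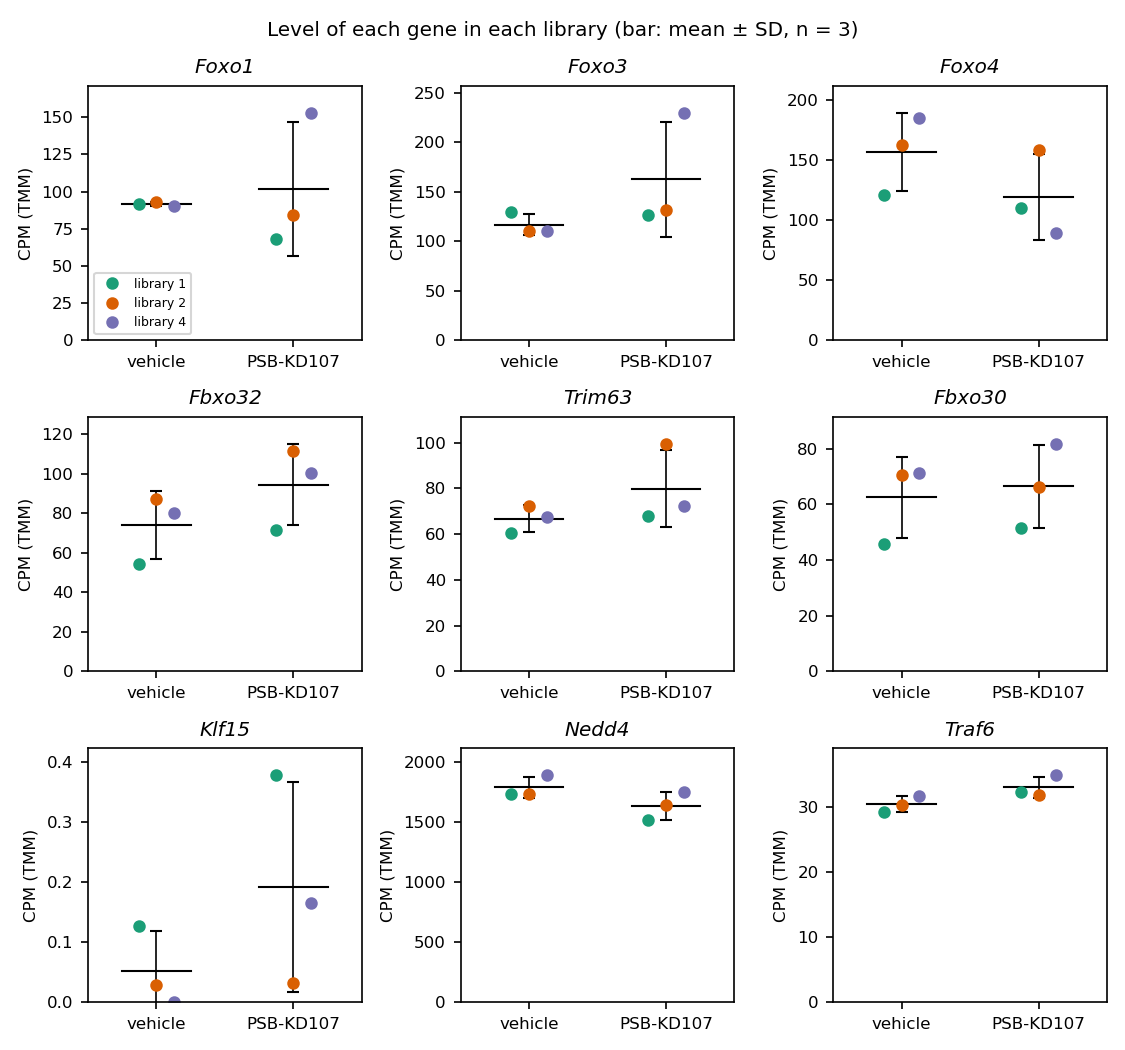
CPM (TMM-scaled) of each gene in each library, with a panel for each gene and points colored by library number. Horizontal bars are group means and vertical bars are SDs over 3 libraries. The groups overlap in every panel except Traf6, and PSB-KD107 library 4 is the highest point for Foxo1 and Foxo3 and the lowest for Foxo4.

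Foxo1, the FoxO factor best known for insulin signaling, was very even in vehicle, with 91.4, 93.1 and 90.4 CPM in libraries 1, 2 and 4. In PSB-KD107 libraries 1, 2 and 4 it was at 68.1, 83.9 and 152.6 CPM. Treated cultures thus lay on both sides of all vehicle cultures, with 2 below and 1 above. The log2 fold change was 0.15 (SE 0.30, 95% interval -0.57 to 0.87, edgeR adjusted p = 0.899), and -0.27 without PSB-KD107 library 4. The coefficient of variation of Foxo1 was 1.52% in vehicle and 44.2% in PSB-KD107 libraries, where the medians over all genes tested were 14.7% and 19.7%.

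Foxo3, which controls Fbxo32 and autophagy genes in muscle, was at 129.3, 110.6 and 110.7 CPM in vehicle. PSB-KD107 libraries 1, 2 and 4 held 126.4, 131.9 and 229.5 CPM. Library 1 of the treated group was within the vehicle range, library 2 was just above it, and library 4 stood far above. Its log2 fold change was 0.48 (SE 0.25, 95% interval -0.13 to 1.08, edgeR adjusted p = 0.623). This value was 0.14 without PSB-KD107 library 4 and 0.62 without PSB-KD107 library 1. Of the 8 genes, Foxo3 had the smallest adjusted p over all libraries.

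Foxo4, the X-linked member of the FoxO family, had 121.1, 162.6 and 185.1 CPM in vehicle. The treated values were 109.8, 158.6 and 89.1 CPM, so that libraries 1 and 4 were below every vehicle library and library 2 was within the vehicle range. The log2 fold change was -0.39 (SE 0.26, 95% interval -1.01 to 0.23, edgeR adjusted p = 0.686). It was -0.22 without PSB-KD107 library 4 and -0.66 without PSB-KD107 library 2 (edgeR unadjusted p = 0.0277, adjusted p = 0.372).

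The 3 FoxO transcripts were also added up, a choice made after their values were seen. Their sum was 70.9 ± 7.95 FPKM in vehicle and 67.4 ± 9.82 FPKM in PSB-KD107 libraries (SD, n = 3, exact permutation p = 0.7, two-sided). Foxo4 made up 55.7%, 64.8% and 67.9% of this sum in vehicle libraries 1, 2 and 4, and 56.2%, 62.7% and 34.8% in PSB-KD107 libraries 1, 2 and 4. The low share of Foxo4 was thus seen in 1 treated library, and the means of 62.8% and 51.2% gave an exact permutation p of 0.3. The ratio of Foxo3 to Foxo4 was 0.492, 0.313 and 0.275 in vehicle and 0.530, 0.383 and 1.19 in PSB-KD107 libraries (exact permutation p = 0.2, where 0.1 is the smallest that 3 against 3 libraries allow). Over the 6 libraries the log2 levels of Foxo1 and Foxo3 had a Pearson correlation of 0.81, and those of Foxo3 and Foxo4 of -0.81, as a description of libraries among which PSB-KD107 library 4 held an extreme for all 3.

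**Figure D3:**
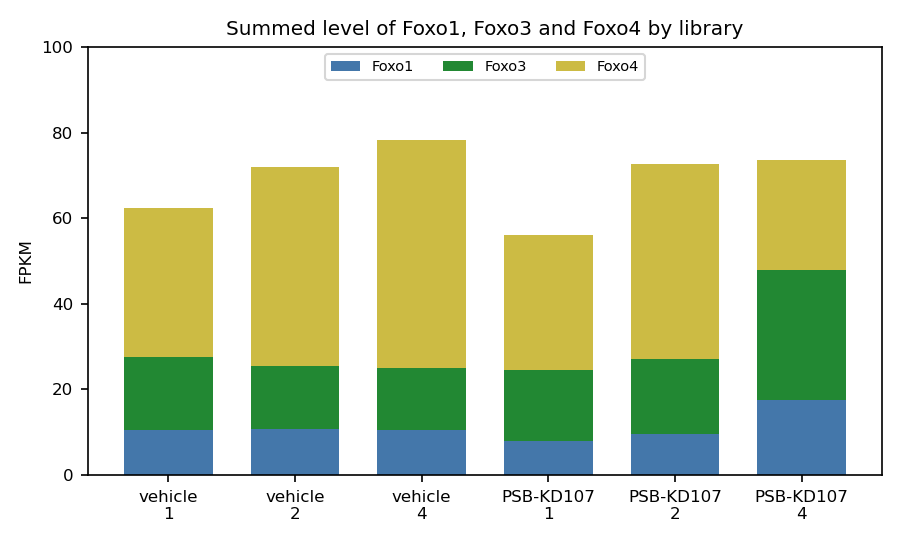
Stacked FPKM of Foxo1 (blue), Foxo3 (green) and Foxo4 (yellow) in each of the 6 libraries. The total stays between 56.1 and 78.2 FPKM, while in PSB-KD107 library 4 Foxo4 makes up 34.8% of it, against 55.7% to 67.9% in the other libraries.

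Klf15, which acts with the glucocorticoid receptor on amino acid breakdown genes, was close to the limit of detection. It had 5, 1 and 0 counts in vehicle libraries 1, 2 and 4 and 19, 1 and 6 counts in PSB-KD107 libraries 1, 2 and 4, and it did not pass the filter on low counts. Scaled to total counts without TMM factors, the summed counts of 6 and 26 gave a ratio of 3.96. Its exact 95% interval of 1.59 to 11.8 covers counting error only. Of the 26 treated counts, 19 came from library 1, which left 7 in the other treated libraries. DESeq2, run on all genes with a count, gave Klf15 a log2 fold change of 1.86 with an SE of 1.55 and no adjusted p. The counts were few and varied widely between libraries of each group, so a difference between groups was not resolved.

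Fbxo32, the SCF receptor whose known substrates include MyoD and the translation factor eIF3f, was at 54.4, 87.4 and 80.2 CPM in vehicle. It was at 71.7, 111.4 and 100.1 CPM in PSB-KD107 libraries 1, 2 and 4. In both groups library 1 was the lowest, and the lowest treated value lay within the vehicle range while the other treated values were above it. The mean was 74.0 ± 17.4 CPM in vehicle and 94.4 ± 20.5 CPM in treated libraries (SD, n = 3), a log2 fold change of 0.35 (SE 0.24, 95% interval -0.22 to 0.93, edgeR adjusted p = 0.696). This difference was 0.31 without PSB-KD107 library 4. With each library left out in turn, edgeR gave from 0.17 (without vehicle library 1) to 0.51 (without PSB-KD107 library 1).

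Trim63, the MuRF1 gene whose upstream sequence is printed above, had 60.4, 72.4 and 67.6 CPM in vehicle. With PSB-KD107 it had 68.1, 99.3 and 72.5 CPM. Treated library 2 stood above all vehicle libraries, treated library 4 was just above the highest vehicle value, and treated library 1 was within the vehicle range. Its log2 fold change was 0.26 (SE 0.17, 95% interval -0.15 to 0.67, edgeR adjusted p = 0.686). It was 0.32 without PSB-KD107 library 4 and 0.07 without PSB-KD107 library 2. The ratio of Fbxo32 to Trim63 counts was 1.10 ± 0.171 in vehicle and 1.18 ± 0.172 in treated libraries (SD, n = 3, exact permutation p = 0.6). Over the 6 libraries, Fbxo32 had a Pearson correlation of 0.85 with Trim63 and of 0.82 with Fbxo30 on the log2 scale, as a description.

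Fbxo30, the other SCF receptor of the group, was at 45.8, 70.6 and 71.2 CPM in vehicle and 51.6, 66.3 and 81.6 CPM in PSB-KD107 libraries. The groups overlapped, and library 1 was again the lowest in both. The log2 fold change of 0.09 (SE 0.24, 95% interval -0.49 to 0.67, edgeR adjusted p = 0.926) turned to -0.09 without PSB-KD107 library 4, and also without vehicle library 1.

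Nedd4, the HECT ligase with the highest level here, had 1737, 1737 and 1889 CPM in vehicle and 1516, 1639 and 1749 CPM in PSB-KD107 libraries. Treated libraries 1 and 2 were below every vehicle library and library 4 was within their range. The log2 fold change was -0.13 (SE 0.12, 95% interval -0.41 to 0.16, edgeR adjusted p = 0.777), so that a change of 2-fold lay outside the interval in both directions. Traf6 was the only gene of the 8 whose groups did not overlap, with 29.2, 30.2 and 31.7 CPM in vehicle and 32.3, 31.9 and 34.8 CPM in PSB-KD107 libraries. The distance between the highest vehicle and the lowest treated library was small, and among all genes tested 9.2% had a treated group fully above the vehicle group. For Traf6 the log2 fold change was 0.12 (SE 0.10, 95% interval -0.12 to 0.36, edgeR adjusted p = 0.752), with an exact permutation p of 0.1, the smallest this design allows. Without PSB-KD107 library 4, Nedd4 was at -0.18 and Traf6 at 0.08. The intervals over all 6 libraries of Nedd4, Traf6, Trim63, Fbxo32, Fbxo30 and Foxo1 excluded a 2-fold rise, and those of Foxo3 and Foxo4 reached a 2-fold rise and a 2-fold fall, respectively.

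**Figure D4:**
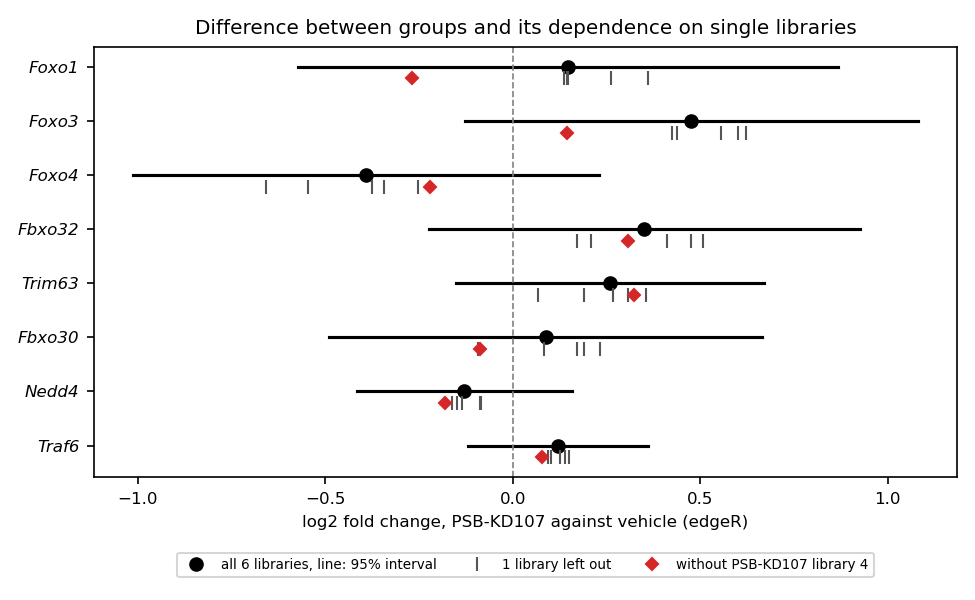
Log2 fold change of PSB-KD107 against vehicle for the 8 tested genes, with black points and lines for the estimate and 95% interval over all 6 libraries. Ticks are estimates with 1 library left out, and red diamonds are those without PSB-KD107 library 4. All 8 intervals include 0, and the diamonds of Foxo1 and Fbxo30 lie below 0.

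By the correlation of log2 CPM over the 6 libraries, the tested genes most like each member were Zc2hc1a and Synpo for Foxo1 (Pearson r of 0.997 and 0.992), C2cd2 and Nicn1 for Foxo3 (0.996 and 0.996), and Mapk13 and Chsy3 for Foxo4 (0.998 and 0.998). For the ligases they were Wdr47 and Cnppd1 for Fbxo32 (0.997 and 0.992), Rtfdc1 and Wars2 for Trim63 (0.992 and 0.987), Zdhhc2 and Fastkd1 for Fbxo30 (0.995 and 0.995), Gm4149 and Mylip for Nedd4 (0.993 and 0.988), and Irak4 and Pptc7 for Traf6 (0.994 and 0.988). These are the highest of 14165 genes over 6 libraries, and values of this size describe likeness in these libraries alone.

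Genes that control FoxO factors were next read from a fixed list of 35, all tested. In PSB-KD107 libraries 20 lay above and 15 below their vehicle level. At an unadjusted p under 0.05, 6 passed upward and 1 downward, and their median log2 fold change came to 0.02. Over all genes tested, 6.47% were higher and 2.93% lower at that threshold, and 49.9% had a log2 fold change above 0. In this list and in every list that follows, edgeR called 0 genes at an adjusted p under 0.05. Ppargc1a encodes a coactivator that dampens FoxO3 activity in muscle. It was at 6.35, 10.1 and 7.07 CPM in vehicle and 17.8, 23.1 and 53.0 CPM in PSB-KD107 libraries, all above the vehicle libraries (log2 fold change 2.00, edgeR adjusted p = 0.264, DESeq2 adjusted p = 0.0012). The median was 0.06 without PSB-KD107 library 4, with 19 genes above and 16 below 0. Sgk1, a kinase that phosphorylates FoxO factors much as Akt does, was at 29.1 ± 2.50 and 39.1 ± 3.31 CPM (log2 fold change 0.43, edgeR adjusted p = 0.360). Skp2, the F-box protein of an SCF ligase that targets Foxo1, was at 14.7 ± 1.08 and 10.6 ± 0.779 CPM (log2 fold change -0.46, edgeR adjusted p = 0.405). Akt1, chosen after its values were seen, had overlapping groups and a log2 fold change of -0.15.

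Of the 43 tested FoxO targets other than the ligases, 30 were higher and 13 were lower, and the median was 0.19 on the log2 scale. Below an unadjusted p of 0.05 were 9 higher genes and 1 lower gene, beside 6.47% and 2.93% of all genes tested. DESeq2 called 4 of them, beside 1.7% called among all genes with a count. That base, also used for later lists, includes genes with counts too low for the edgeR filter, so it is not a like background. The list was not split by whether FoxO factors raise or lower a gene. Pdk4, the kinase that switches off pyruvate dehydrogenase, was at 49.7, 47.3 and 42.1 CPM in vehicle and 76.5, 64.3 and 97.9 CPM in PSB-KD107 libraries (log2 fold change 0.78, edgeR adjusted p = 0.253, DESeq2 adjusted p = 0.0196). Eif4ebp1, a repressor of translation, was at 62.9 ± 8.54 and 102 ± 6.87 CPM (log2 fold change 0.69, edgeR adjusted p = 0.206). The lysosomal protease gene Ctsl, the third gene that DESeq2 called higher, was between 161.6 and 265.1 CPM in vehicle and between 367.3 and 458.0 CPM in PSB-KD107 libraries. Txnip, which limits glucose uptake, was the exception, with 71.8, 67.2 and 54.4 CPM in vehicle and 39.4, 28.2 and 28.1 CPM in PSB-KD107 libraries (log2 fold change -1.01, edgeR adjusted p = 0.202, DESeq2 adjusted p = 0.0006). Pdk4, Eif4ebp1 and Ctsl were thus higher and Txnip lower in PSB-KD107 libraries. The part of the FoxO factors in these differences was not tested. Without PSB-KD107 library 4, 26 targets lay above 0 and 17 below it, and the median was 0.10.

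Among 30 other ligases and related genes linked to atrophy, 19 lay above and 11 below 0, and the median was 0.05. An unadjusted p under 0.05 was reached by 3 higher genes, beside 6.47% of all genes tested. Fbxo40, a muscle F-box protein that targets Irs1, was at 7.32, 4.87 and 1.80 CPM in vehicle and 41.4, 18.4 and 14.3 CPM in PSB-KD107 libraries, with no overlap (log2 fold change 2.40, edgeR adjusted p = 0.330, DESeq2 adjusted p = 0.0028). Without PSB-KD107 library 4, 16 of the 30 lay above 0 and the median was 0.0064. The SCF core that Fbxo32 and Fbxo30 need had 2 of 8 genes higher and 6 lower, with a median of -0.08 (-0.02 without PSB-KD107 library 4), and Skp1 had the smallest p, at 328 ± 15.7 and 266 ± 31.8 CPM (log2 fold change -0.30, edgeR adjusted p = 0.514).

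The Nedd4 family and its adaptors had 8 of 11 tested genes higher and 3 lower, with a median of 0.25, or 0.13 without PSB-KD107 library 4, beside the -0.13 of Nedd4 itself. Smurf1, which targets Smad proteins, was at 60.7, 66.7 and 68.4 CPM in vehicle and 86.7, 90.7 and 89.1 CPM in PSB-KD107 libraries (log2 fold change 0.44, edgeR adjusted p = 0.228, DESeq2 adjusted p = 0.0123). Wwp1, another HECT ligase, was at 43.1 ± 3.98 and 54.5 ± 4.53 CPM (log2 fold change 0.34, edgeR adjusted p = 0.452). Genes that act with Traf6 were evenly split, with 12 of 22 higher, 10 lower and a median of 0.02 (0.04 without PSB-KD107 library 4 and -0.0046 without PSB-KD107 library 1). The p62 gene Sqstm1, an autophagy receptor that binds Traf6, was at 374.3, 438.1 and 433.3 CPM in vehicle and 1021, 871.4 and 685.1 CPM in PSB-KD107 libraries, all far above vehicle (log2 fold change 1.05, edgeR adjusted p = 0.185, DESeq2 adjusted p = 0.0001). Tifa, an adaptor of Traf6, was at 0.948 ± 0.174 and 3.67 ± 2.80 CPM (log2 fold change 1.95, edgeR adjusted p = 0.394, DESeq2 adjusted p = 0.0388), and Ikbkg was the third gene higher at an unadjusted p under 0.05. The Traf family member Traf4 was at 248 ± 29.3 and 186.5 ± 30.2 CPM (log2 fold change -0.41, edgeR adjusted p = 0.489).

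The list around glucocorticoid signaling and Klf15 had a median of 0.30, with 17 of 22 tested genes higher and 5 lower. At an unadjusted p under 0.05, 6 were higher and 1 (Bckdha) was lower, beside 6.47% and 2.93% of all genes tested. Sgk1, already counted among the FoxO regulators, is also 1 of these 6. DESeq2 called 4 higher (Mt1, Mt2, Cebpb and Cebpd), beside 1.7% called among all genes with a count. The metallothionein gene Mt2, which also responds to metals, was at 12.2, 7.36 and 3.51 CPM in vehicle and 58.0, 23.3 and 64.6 CPM in PSB-KD107 libraries (log2 fold change 2.66, edgeR adjusted p = 0.248, DESeq2 adjusted p = 0.0001). Cebpb, a transcription factor that can drive Fbxo32, was at 20.9, 17.2 and 17.3 CPM in vehicle and 45.8, 31.8 and 44.1 CPM in PSB-KD107 libraries (log2 fold change 1.13, edgeR adjusted p = 0.185, DESeq2 adjusted p = 0.0001). Bckdha, an enzyme of branched-chain amino acid breakdown, had overlapping groups at 74.1 ± 9.89 and 53.9 ± 8.97 CPM (log2 fold change -0.46, edgeR adjusted p = 0.467). Of the 4 genes that DESeq2 called, Cebpb and Cebpd encode C/EBP factors and Mt1 and Mt2 metallothioneins. The other genes of this list were not called by DESeq2, and a change in glucocorticoid signaling was not tested. Without PSB-KD107 library 4, 14 genes of this list lay above 0 and 8 below it, and the median was 0.17.

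Substrates and sarcomere partners of atrogin-1 and MuRF1 had 10 of 16 genes higher and 6 lower, with a median of 0.14. It was -0.11 without PSB-KD107 library 4, with 7 higher and 9 lower, and -0.04 without PSB-KD107 library 1. Actc1, the cardiac actin gene expressed in young muscle cells, was at 5787 ± 614 and 3818 ± 637 CPM (log2 fold change -0.60, edgeR adjusted p = 0.394), and it was also among the 5 myotube markers that were lower at an unadjusted p under 0.05, with Myog, Mymk, Mymx and Myh3. Of the 15 myotube markers, 10 were lower and 5 higher, with a median of -0.20. Without PSB-KD107 library 4, 14 were lower and the median was -0.36, whereas without vehicle library 1, 8 were lower and it was -0.015. Over all genes tested, 2.93% were lower at an unadjusted p under 0.05. DESeq2 called 2 of the 15 myotube markers lower at an adjusted p under 0.05, beside 1.7% called among all genes with a count. Among the 11 myoblast markers, 8 were lower and 3 higher (median -0.07). Pax7, chosen after its values were seen, was the 1 gene lower at an unadjusted p under 0.05. DESeq2 called 1 of the 11 myoblast markers lower at an adjusted p under 0.05. Without vehicle library 1, 6 of these markers were higher and 5 lower, and the median turned to 0.07. As edgeR called 0 of the 15 myotube markers at an adjusted p under 0.05, a difference in them was not resolved by that test. In bulk libraries, a lower level could not tell fewer differentiating cells from less RNA per cell. The part of these markers in the levels of the FoxO factors and ligases was not tested.

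**Figure D5:**
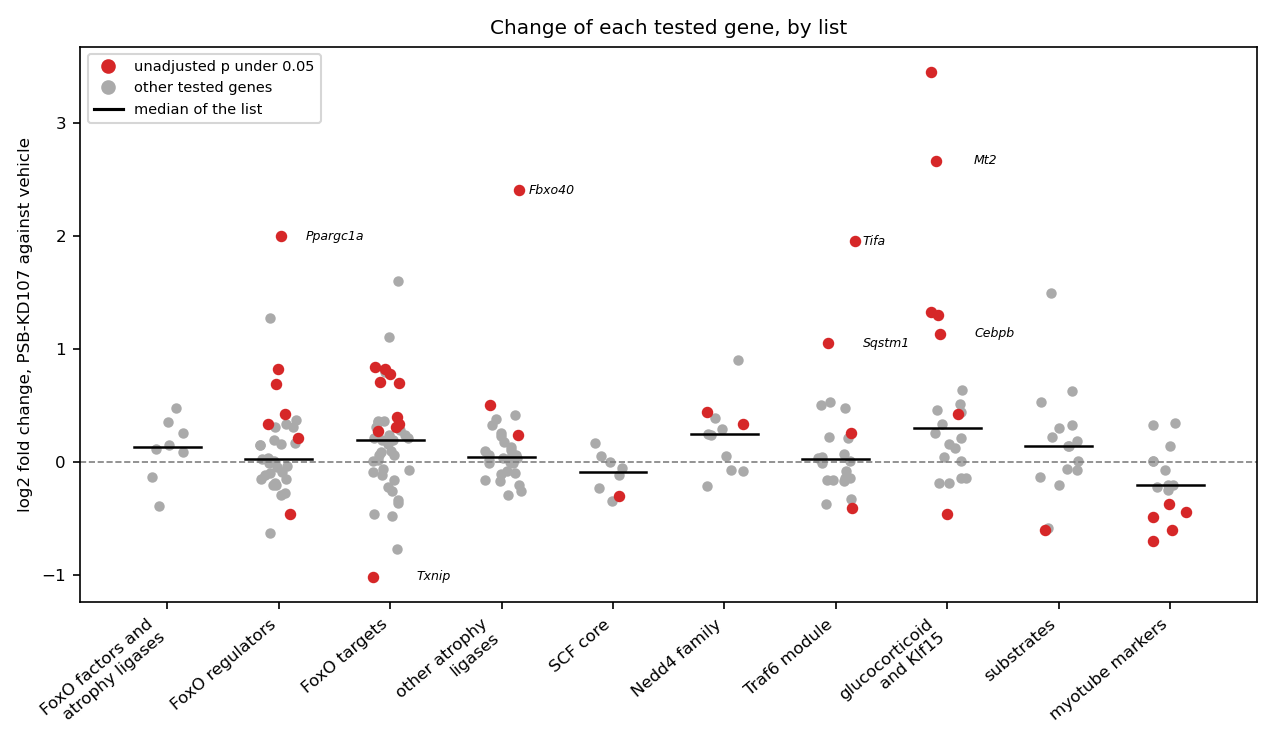
Log2 fold change of every tested gene in the list of FoxO factors and atrophy ligases and in 9 other lists, with list medians as bars and genes at an unadjusted p under 0.05 in red. No gene of the first list is red, and single genes such as Fbxo40, Sqstm1, Mt2 and Txnip lie far from their list medians.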

How the data were processed

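Raw counts per gene from 6 RNA-seq libraries were deposited by the authors as whole numbers with no normalization. They sequenced polyadenylated RNA with a directional kit and aligned the reads with STAR to mm10. The counting program, annotation and strand setting are not given in the sources used here, so overlapping genes may share counts. Gene names, lengths and coordinates were taken from GENCODE M21 (GRCm38), which matched 46574 of 47069 genes and all 256 list symbols. Groups came from the records and column names, and the numbers 1 and 2 occur in both. The records do not tie libraries to animals, although the study states cells from 3 different mice, so p-values measure the spread between these libraries.

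Low counts were filtered with filterByExpr, leaving 14165 genes (22883 genes had no count). Groups were compared with the quasi-likelihood test of edgeR (4.0.16, R 4.3.3, TMM factors from 0.974 to 1.03) with Benjamini-Hochberg adjustment over all genes tested and a threshold of 0.05. Single values were compared by two-sided exact permutation tests of 3 against 3 libraries (smallest p of 0.1, scipy 1.17.1). Alternatives used DESeq2 1.42.0, limma-voom 3.58.1, other filters and scalings, a replicate block and each library left out. On simulated counts for 14165 genes, edgeR recovered 55% of 4-fold and 10% of 2-fold changes, with 8 false among 73 calls. DESeq2 recovered 76% and 46%, with 54 false among 176 calls.

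The genes and lists were chosen with earlier results of these data known. Some genes are in more than 1 list, so the lists are not separate evidence. The genes named were the 9 members, the 2 genes in each direction with the smallest edgeR p under 0.05 in each list (or the 1 with the smallest p), the 2 genes most correlated with each member, and 1 marker per cell type. Ctsl, Mt1, Cebpd, Ikbkg, Akt1, Mymk, Mymx, Myh3 and the markers at 0 were named after their values were seen. A gene covered by this rule is not reported here. Upstream sequences are from RefSeq (GRCm38.p6).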

Additional observations from a re-analysis of the deposited data

How the results depend on the processing

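Over 23 alternatives each, the log2 fold changes of Foxo3, Fbxo32, Trim63 and Traf6 stayed positive and those of Foxo4 and Nedd4 stayed negative, whereas Foxo1 turned in 5 and Fbxo30 in 4. Foxo1 was at -0.29 (edgeR) and -0.30 (DESeq2) with the replicate number as a block on the 4 libraries numbered 1 and 2, and at -0.28 in the same 4 libraries by edgeR without a block. With each library left out in turn, Foxo1 went from -0.29 to 0.36 and Fbxo30 from -0.11 to 0.23. Genes called over the whole table were 0 with edgeR, 8 with no filter on low counts, 410 with DESeq2, 234 with DESeq2 and at least 2-fold change, and with each library left out 0 in every edgeR fit and 160 to 775 with DESeq2. Members called were 0, and 0 with each library left out. Members at an unadjusted p under 0.05 were 0, and 0 to 1 with each library left out. Genes of the lists at an unadjusted p under 0.05 were 32, with 20 in the 4 libraries without a block and with each library left out 17 to 37 by edgeR and 21 to 44 by DESeq2. The causes were not tested, beyond the fewer libraries.

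With the replicate block on 4 libraries, edgeR called 2582 of the 14165 genes tested, and DESeq2 called 1523 among all genes with a count. Members called were then 3 by edgeR (Foxo1, Fbxo32 and Trim63, adjusted p = 0.0428, 0.00637 and 0.0330) and 1 by DESeq2 (Fbxo32, adjusted p = 0.0217), members at an unadjusted p under 0.05 were 3 by either tool, and list genes were 88 and 64. This block leaves a single residual degree of freedom. The share of all genes at an unadjusted p under 0.05 was not taken for the fits with a block. Counts of members and list genes at that threshold therefore have no background beside them. With the block on all 6 libraries, numbered as in the table and added after seeing the data, DESeq2 called 638 genes, and 1 member (Fbxo32) had an unadjusted p under 0.05 by either tool (adjusted p = 0.264 by edgeR and 0.133 by DESeq2). Deviations from the group means had correlations of 0.63, 0.47 and -0.13 for the libraries numbered 1, 2 and 4. Vehicle library 4 correlated best with PSB-KD107 library 2 (0.62). Such deviations cancel out within each group, so these correlations depend on one another and cannot settle whether the numbers pair the libraries. Both groups carry the numbers 1, 2 and 4, but no label ties a number to a mouse. The main test therefore used no pairing, and pairing remains possible. The edgeR version used here applies the older form of its fit by default, so the newer form was run in place of the planned one, as an alternative added after seeing the data. Klf15 was limited by low counts that varied between libraries, from 0 to 19.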
